A study of Homo sapiens with 6 samples.

Results

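ZNF genes are the largest family of human transcription factor genes, and most of them encode proteins with tandem C2H2 zinc fingers that read DNA sequence. The genes described here are all rows of the deposited gene table that are protein-coding and carry a symbol made of ZNF, digits and optional capital letters. The rule used no measured value and found 129 genes among the 7758 listed genes. GENCODE 29, the annotation whose coordinates the table carries, names 509 such genes, so the table lists 25.3% of them, against 34.0% of all other protein-coding genes. Of the 129 genes, 59 lie on chromosome 19 (24.0% of the 246 annotated there) and 70 elsewhere (26.6% of 263). The transcription factor column of the table gives 114 of them the zf-C2H2 family and leaves 15 without a family.

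Many ZNF proteins also carry a Krüppel-associated box (KRAB), a repressor domain that recruits the corepressor TRIM28, the histone methyltransferase SETDB1 and HP1 proteins to the bound DNA. The best known targets of KRAB zinc finger proteins are retrotransposons, and ZNF genes themselves. The genes arose by repeated duplication and lie in clusters on chromosome 19, so that neighbours resemble each other in sequence.

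RNA was sequenced from ARPE-19, an established human retinal pigment epithelium (RPE) line, after silencing of METTL3, the catalytic subunit of the complex that writes N6-methyladenosine (m6A) on mRNA. One group of 3 libraries (sh-METTL3) carried a lentiviral short hairpin RNA against METTL3, and the other group of 3 (sh-Control) a scrambled hairpin. All 6 libraries came from cells exposed to 1 µg/ml lipopolysaccharide (LPS) for 24 h, so no unstimulated cells enter these values. The study's methods describe selection of stably transduced strains, and it is not stated if each library stems from its own infection, so p-values measure only the spread between these libraries. Values are scaled counts, which are gene read counts divided by 1 size factor for each library, and with bulk RNA fewer expressing cells and less RNA per cell cannot be told apart.

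The libraries held 10898434 to 17750052 reads on listed genes, and 56717 to 96520 of them (0.519% to 0.556%) fell on the 129 ZNF genes. Every listed gene had already passed the authors' own test at an adjusted p of at most 0.05, so the list is a selection of changed genes, and unlisted ZNF genes were not analysed here. The first principal component of the listed genes (89.8% of the variance) separated the groups, and the second (3.36%) set sh-METTL3 replicate 3 apart from its group mates. Without that library 116 of the 129 ZNF genes were still called and 0 changed sign, and without any other single library 106 to 121. METTL3 itself, the targeted gene, had scaled counts of 1154, 1108 and 1091 in the sh-Control libraries and 966, 1001 and 765 in the sh-METTL3 libraries. The groups did not overlap, with a log2 fold change of -0.30 ± 0.10 (SE, n = 3 per group, limma adjusted p = 0.032), but this call was lost under 5 of 13 alternative fits, with adjusted p up to 0.26. Without sh-METTL3 replicate 3 the value was -0.18. The study also reports less METTL3 protein by western blotting and a lower m6A share by a colorimetric assay in its METTL3-silenced ARPE-19 cells. Of 17 RPE marker names 8 were listed, and 4 rose (KRT8, KRT18, MITF and LRAT, by 1.05, 0.41, 0.85 and 0.99 on the log2 scale) and 4 fell (SERPINF1, PMEL, BEST1 and TJP1, at -3.04, -1.80, -1.73 and -1.17). Their summed scaled count, mostly KRT8 and KRT18, was 22637 to 23936 in the sh-Control and 31900 to 35150 in the sh-METTL3 libraries. The visual cycle genes RPE65 and RLBP1 were not listed, whereas LRAT was. Of the markers of other cell types, 0 of 4 endothelial, 1 of 4 immune (CD14) and 3 of 7 fibroblast names (COL1A1, COL1A2, PDGFRB) were listed, and these 4 genes fell. The fibroblast names summed to 11164 to 13066 in the sh-Control and 4710 to 5361 in the sh-METTL3 libraries. The share that these shifts have in the ZNF values was not tested.

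Among the 129 ZNF genes, 62 rose and 66 fell in sh-METTL3 at a limma adjusted p under 0.05, and only ZNF367 was not called. Over all listed genes 97.9% were called, 46.6% higher and 51.3% lower, so this near-even split lay close to that of the list. The median log2 fold change was -0.21 for the ZNF genes and also over all 7758 listed genes, which include non-coding ones. The other listed protein-coding genes had 42.7% called higher and 55.2% lower, with a median of -0.25. No listed gene changed by less than 0.13 on this scale, so medians of near-even splits fall at an edge of that gap. The libraries of both groups were fully separated for 129 of 129 ZNF genes, against 98.5% of the list. Scaled counts of ZNF367 were 388, 452 and 428 in the sh-Control libraries and 372, 334 and 172 in the sh-METTL3 libraries, a log2 fold change of -0.60 ± 0.24 (limma adjusted p = 0.089), and sh-METTL3 replicate 3 lay far below the other libraries. Without it the value was -0.26. A fitted change of at least a doubling was called for 15 ZNF genes (11.6%), or 14 with ZNF492, which had no control reads, at its lower bound, and of at least a halving for 12 (9.3%). The shares were 17.4% and 13.1% over the list and 12.6% and 12.7% over the other listed protein-coding genes.

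ZNF genes on chromosome 19 leaned upward, and those elsewhere were split much like other protein-coding genes of the list. On chromosome 19 34 genes rose and 25 fell, and their log2 fold changes had a median of 0.43 and quartiles of -0.52 and 0.88. On the other chromosomes 28 rose and 41 fell, and the median was -0.33, between quartiles of -0.63 and 0.46. Relative to the sh-Control mean, the median chromosome 19 gene stood at 1.31, 1.36 and 1.34 in the sh-METTL3 libraries, and the median gene elsewhere at 0.820, 0.798 and 0.817. The authors' selection favours such agreement between libraries. The 371 other listed protein-coding genes of chromosome 19 also leaned slightly upward, with 187 higher and 175 lower and a median of 0.20, while the 6611 other listed protein-coding genes of the genome had 42.7% higher and 55.2% lower and a median of -0.25. RLE factors, which move every log2 fold change up by 0.12, gave 34 higher and 18 lower on chromosome 19 and 28 and 29 elsewhere, with medians of 0.55 and -0.21. These are counts over genes chosen by an earlier test, and no test of the difference between the sets was made.

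**Figure D1:**
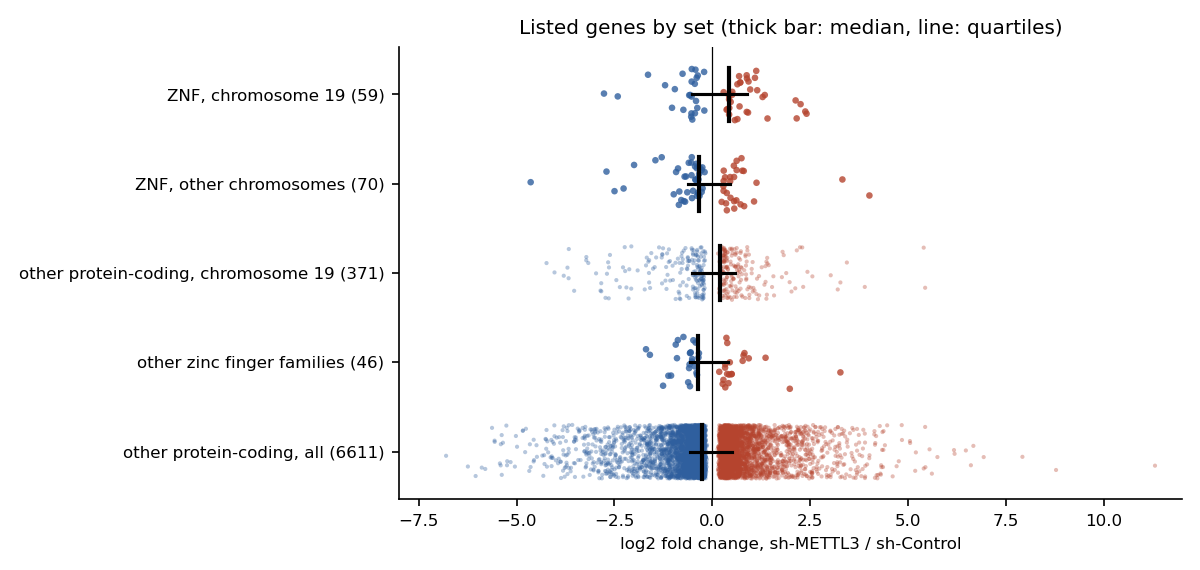
Each point is 1 listed gene, placed by its log2 fold change (sh-METTL3 over sh-Control, limma estimate, x axis) in 5 sets (rows, with the number of genes), and thick bars mark medians with lines from the lower to the upper quartile. The median of the 59 chromosome 19 ZNF genes lies right of 0 at 0.43 and that of the 70 other ZNF genes left of it at -0.33, with wide overlap of the points. The empty band around 0 is the authors' preselection.

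Of the 34 rises on chromosome 19, 13 lay in 1 stretch of its short arm. Listed ZNF genes were joined into a run where neighbouring starts lay within 1 Mb and at least 4 genes followed each other, which gave 6 runs with 47 of the 59 genes. The largest run, chr19:19997058-23395560, held 14 listed ZNF genes of 28 annotated ones, and no other listed protein-coding gene. In it 13 genes rose and 1 fell, and the median change was 0.90 on the log2 scale, or 0.80 with ZNF492, which had no control reads, at its lower bound. The 45 remaining ZNF genes of chromosome 19 had 21 higher and 24 lower. Their median of -0.21 lies at the edge of the gap that the authors' selection left around 0. With neighbours joined within 0.5 Mb the run shrank to 10 genes, and all 10 were higher.

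**Figure D2:**
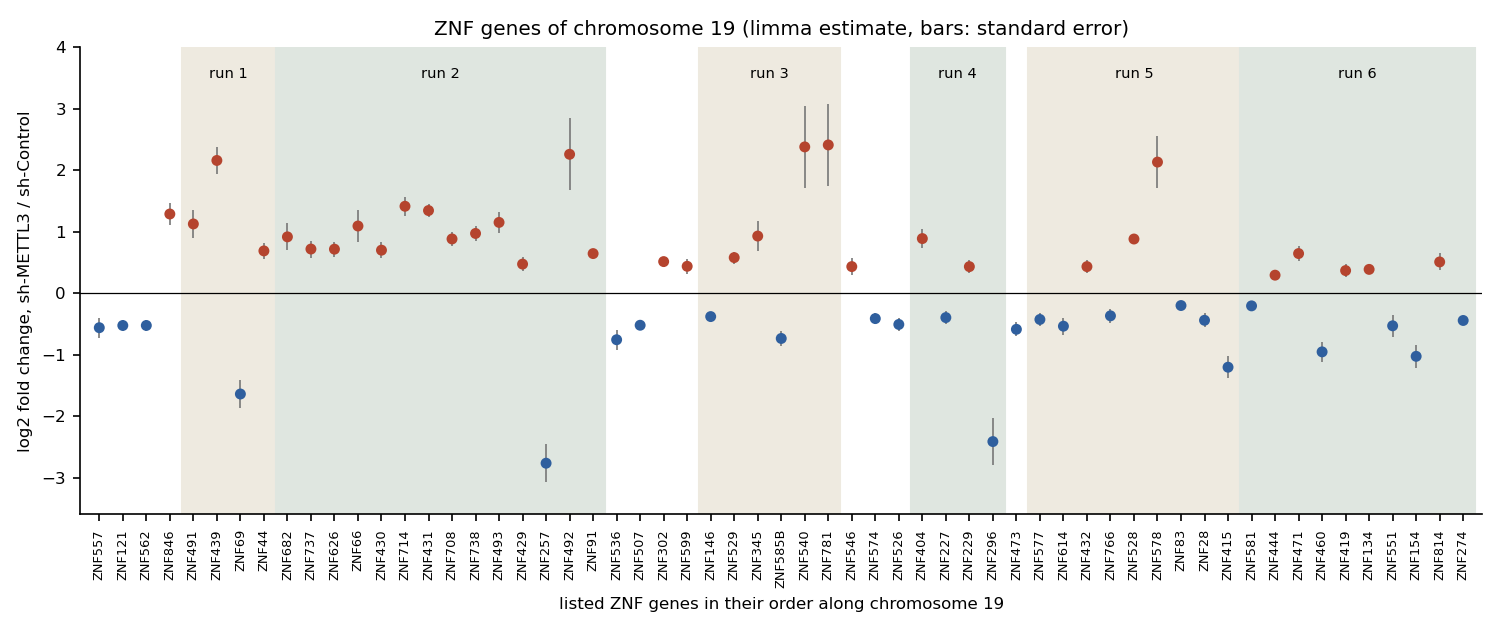
Log2 fold change (y axis, limma estimate, bars are standard errors) of the 59 listed ZNF genes in their order along chromosome 19 (x axis, not to distance), red above and blue below 0, with the 6 runs shaded. Run 2, from ZNF682 to ZNF91, is red apart from ZNF257 at -2.77, and the runs to its right mix both directions.

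The strongest well-measured rises of the run belonged to 4 genes in its middle part. ZNF714 (chr19:21082159-21125270, plus strand) gave scaled counts of 361, 369 and 321 in the sh-Control libraries and 1086, 1061 and 701 in the sh-METTL3 libraries. The groups were far apart, though sh-METTL3 replicate 3 lay well below its group mates, and the log2 fold change was 1.41 ± 0.15 (SE, limma adjusted p = 5.5e-05). Its neighbour ZNF431 (chr19:21142024-21196053, plus strand) read 339.8, 351 and 435 in the sh-Control libraries and 975, 1028 and 844 in the sh-METTL3 libraries. That was a mean change from 375 ± 51.9 to 949 ± 94.7 (SD, n = 3), a log2 fold change of 1.34 ± 0.11 (adjusted p = 9.5e-06).

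ZNF493 (chr19:21397119-21427573, plus strand), with 18 predicted fingers, was measured at 153, 162 and 196 in the sh-Control libraries and 351, 317 and 483 in the sh-METTL3 libraries. Here sh-METTL3 replicate 3 was the highest library, the reverse of ZNF714, and the log2 fold change was 1.15 ± 0.17 (limma adjusted p = 0.00037). ZNF738 (chr19:21358930-21379302, plus strand) encodes a KRAB box without a predicted finger. It had 189.9, 163 and 173 in the sh-Control libraries and 379.7, 345 and 309 in the sh-METTL3 libraries, a log2 fold change of 0.97 ± 0.12 (adjusted p = 0.00013).

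The other members of the run were named after their values were seen. ZNF91 (chr19:23304991-23395560, minus strand), a repressor of SVA and LINE-1 retrotransposons with 31 predicted fingers, read 739, 715 and 799 in the sh-Control libraries and 1245, 1134 and 1138 in the sh-METTL3 libraries. It was the most read gene of the run in counts, and its rise of 0.64 ± 0.07 on the log2 scale (adjusted p = 6.3e-05) was among the smaller ones. ZNF708, ZNF430, ZNF737 and ZNF626 rose by 0.88, 0.70, 0.72 and 0.71 on the log2 scale, ZNF429 by 0.47, and the weakly expressed ZNF682 and ZNF66 by 0.91 and 1.09. ZNF257 was the exception, at 30.3, 27.9 and 27.1 in the sh-Control libraries and 2.8, 3.87 and 3.36 in the sh-METTL3 libraries. Its libraries separated completely in the opposite direction, with a log2 fold change of -2.77 ± 0.31 (adjusted p = 7.1e-05). ZNF492 had 0 reads in every sh-Control library and 9, 2 and 2 reads in sh-METTL3, with 33.3% of its transcript stretches shared with other genes. Against a floor of 3 reads per library its mean was at least 1.64-fold higher. This bound rests on sh-METTL3 replicate 1, as replicates 2 and 3 (2.58 and 2.24 scaled counts) lay under the floor of 2.69.

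**Figure D3:**
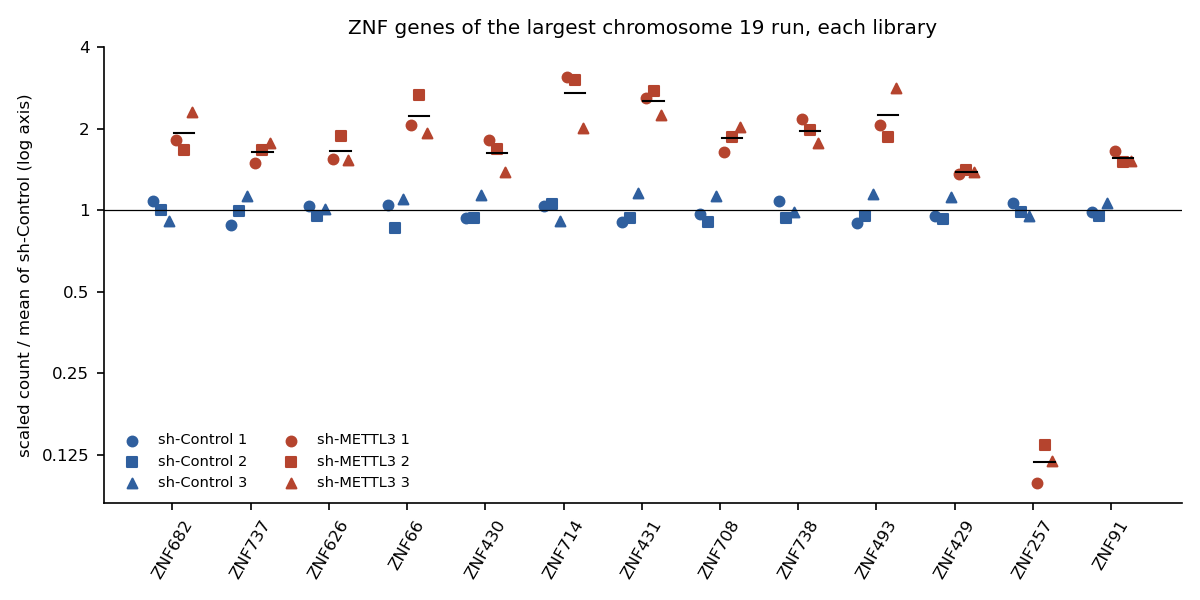
Scaled count of each library divided by the sh-Control mean of the gene (y axis, log scale) for 13 ZNF genes of the largest run in chromosomal order, blue for sh-Control and red for sh-METTL3, with black bars at the sh-METTL3 mean. Red points lie above blue ones in 12 genes, and ZNF257 lies far below 1. ZNF492, at 0 in the controls, has no ratio and is left out.

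The median ratio of the run's genes to the sh-Control mean was 1.81, 1.86 and 1.77 in the sh-METTL3 libraries, against 0.984, 0.952 and 1.09 in the sh-Control libraries. Every listed gene had passed the authors' group test, which favours agreement between libraries, so this agreement is not read as a feature of the run. Levels in scaled counts per kilobase of exon reached 67.8 for ZNF708 and 72.2 for ZNF91 in sh-Control and stood at 4.82 for ZNF66, so the run combined well and poorly expressed genes. The stretch also held 7 listed non-coding genes, of which 6 were higher and 1, the pseudogene ZNF826P, was lower at -0.64 ± 0.15. Among all listed non-coding genes 71.8% were called higher, so 6 of 7 is not read as a feature of the stretch.

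The starts of most genes of the run are alike in sequence, and a few are shown because the members moved together. From the RefSeq promoter table (GRCh38.p14), 116 of the 129 genes were matched, and 80 bases, from 120 to 41 before the RefSeq start, are given 5′ to 3′ in the direction of the gene. Capitals mark the CCAAT box, the pentamer CCAAT, in letters chosen after these promoters were viewed. The first 5 genes rose, ZNF257 of the same run fell, and ZNF680 and ZNF92 of chromosome 7 fell.
ZNF714: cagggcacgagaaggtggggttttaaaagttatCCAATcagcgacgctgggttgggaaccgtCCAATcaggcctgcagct
ZNF431: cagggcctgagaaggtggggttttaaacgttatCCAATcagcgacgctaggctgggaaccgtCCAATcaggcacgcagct
ZNF493: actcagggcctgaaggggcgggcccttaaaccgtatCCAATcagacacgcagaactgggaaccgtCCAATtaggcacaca
ZNF430: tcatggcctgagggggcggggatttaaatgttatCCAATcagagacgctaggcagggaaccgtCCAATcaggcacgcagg
ZNF626: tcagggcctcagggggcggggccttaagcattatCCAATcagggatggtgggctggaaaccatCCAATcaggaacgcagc
ZNF257: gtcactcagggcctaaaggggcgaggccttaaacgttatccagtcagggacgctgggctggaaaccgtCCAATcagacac
ZNF680: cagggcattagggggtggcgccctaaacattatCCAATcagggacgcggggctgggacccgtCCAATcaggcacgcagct
ZNF92: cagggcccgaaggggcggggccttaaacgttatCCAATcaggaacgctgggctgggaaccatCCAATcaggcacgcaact
They lie at chr19:21082083-21082162, chr19:21141920-21141999, chr19:21397013-21397092, chr19:21020537-21020616 and chr19:22052364-22052443 on the plus strand, chr19:20661612-20661691 on the minus strand, chr7:64563112-64563191 on the minus strand and chr7:65373735-65373814 on the plus strand.

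In ZNF714 and ZNF431 the boxes began 87 and 58 bases before the start, and the same spacing stood in ZNF680 and ZNF92. Searched on both strands as CCAAT over the 250 bases before the start, the box was present in 13 of 13 matched genes of the run, in 14 of 41 matched ZNF genes on the rest of chromosome 19, in 30 of 62 on other chromosomes and in 32.0% of all 35116 promoters of the table. The longer form CCAATCAG, which contains the pentamer, was present in 13 of 13, 4 of 41, 9 of 62 and 3.81%. The 9 matched ZNF genes of the same stretch that are not listed held both forms in 9 of 9. Over the 120 bases before the start, the other 12 genes of the run had a median identity of 80.3% to ZNF431, against 50.4% for the rest of chromosome 19. ZNF708 and ZNF429, which also rose, were at 50.7% and 48.4%, but this identity compares fixed windows, and the CCAATCAG of these genes began at -31 and -29 from the start, against -87 for the first of ZNF431, so the windows cover different parts. ZNF680 and ZNF92 were 88.3% and 87.5% identical to ZNF431 and yet had log2 fold changes of -0.54 and -0.52, so this letter match did not go with 1 direction. A match describes sequence and says nothing of a bound factor.

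The chromosome 7 genes belong to a group of 4 listed ZNF genes at chr7:64307459-65401135 that was looked at after the promoters were compared. ZNF736 and ZNF117 rose by 0.37 and 0.56 on the log2 scale, and ZNF680 and ZNF92 fell. ZNF680 read 426, 454 and 558 in the sh-Control libraries and 363, 332 and 292 in the sh-METTL3 libraries, and ZNF92 403, 387 and 393 in the sh-Control libraries and 289, 298 and 239 in the sh-METTL3 libraries. Groups did not overlap in either gene, which held for all 129 ZNF genes and 98.5% of the list.

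The other 5 runs of chromosome 19 held 4 to 10 listed ZNF genes each and mixed both directions, with medians of 0.90, 0.75, 0.02, -0.37 and 0.04 on the log2 scale in runs 1, 3, 4, 5 and 6. Runs 1 and 3 thus had medians near that of the largest run, over 4 and 6 genes. Run 1, also on the short arm, had 3 genes higher and 1 lower. In it ZNF439 (chr19:11848726-11883750, plus strand) gave 30.3, 27.9 and 38.3 in the sh-Control libraries and 115, 144 and 186 in the sh-METTL3 libraries, a log2 fold change of 2.16 ± 0.22 (limma adjusted p = 4.2e-05) and the largest rise among chromosome 19 genes with a mean scaled count of at least 50. ZNF69, the next listed ZNF gene on the same strand, went the other way, at 65.4, 64.4 and 74.8 in the sh-Control libraries and 17.7, 20.6 and 25.8 in the sh-METTL3 libraries (log2 fold change -1.64 ± 0.23). Runs 3, 4, 5 and 6 had 4 higher and 2 lower, 2 and 2, 3 and 6, and 5 and 5. Runs 3, 4, 5 and 6 also held 2, 7, 1 and 8 other listed protein-coding genes, and in run 4 6 of its 7 were lower, in contrast to 2 of 4 ZNF genes.

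Outside the runs, ZNF846 (chr19:9751993-9793180, minus strand) rose, with 77.4, 69.2 and 52.3 in the sh-Control libraries and 149, 159.8 and 175 in the sh-METTL3 libraries. All 3 sh-METTL3 libraries lay close together and far above the controls, and the log2 fold change was 1.28 ± 0.18 (adjusted p = 0.00031).

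Among chromosome 19 genes with a mean scaled count of at least 50, the 3 largest falls lay towards the end of the long arm. ZNF415 (chr19:53107879-53133077, minus strand) read 140.4, 141 and 188 in the sh-Control libraries and 79.3, 60.6 and 61.6 in the sh-METTL3 libraries. Its groups were well separated although sh-Control replicate 3 was high, and the log2 fold change was -1.21 ± 0.18 (limma adjusted p = 0.00054). ZNF154, a gene often methylated in tumours (chr19:57697367-57709194, minus strand), fell from 181 ± 23 to 88.9 ± 18.5 (SD, n = 3), -1.03 ± 0.18 on the log2 scale (adjusted p = 0.0015). ZNF460 had 188, 192 and 278 in the sh-Control libraries and 111, 107 and 114 in the sh-METTL3 libraries, so that sh-Control replicate 3 again stood above the other controls, with -0.96 ± 0.17 (adjusted p = 0.0013).

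ZNF536, a repressor of neuronal differentiation, ZNF585B and ZNF473, a component of the U7 snRNP pathway for histone pre-mRNA processing, completed the named falls. Their log2 fold changes were -0.76 ± 0.16, -0.74 ± 0.12 and -0.59 ± 0.12 (adjusted p = 0.0042, 0.00083 and 0.0026). Groups without overlap were a condition for naming these falls, so their separation is not a result. For ZNF585B 24.9% of the transcript's stretches of 50 bases occur in other genes, and ZNF473 shares exons with VRK3, so their read assignment is uncertain. ZNF274, which brings SETDB1 to the ends of other ZNF genes and was named after its values were seen, had 1098, 1166 and 1253 in the sh-Control libraries and 841, 838 and 900.3 in the sh-METTL3 libraries. It fell by 0.45 on the log2 scale (adjusted p = 0.00062).

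On the other chromosomes the deepest falls were on chromosome 3 and chromosome 20. ZNF662 (chr3:42905731-42917641, plus strand) had 437, 424 and 481 in the sh-Control libraries and 23.3, 11.6 and 17.9 in the sh-METTL3 libraries. This was the largest change of any ZNF gene, a log2 fold change of -4.64 ± 0.23 (limma adjusted p = 3.8e-07), from a level of 88.2 to 3.47 scaled counts per kilobase of exon. ZNF334 (chr20:46499630-46513559, minus strand) read 495, 473 and 549 in the sh-Control libraries and 81.2, 67 and 82.9 in the sh-METTL3 libraries, a log2 fold change of -2.70 ± 0.13 (adjusted p = 3.1e-07).

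ZNF660 (chr3:44578223-44599694, plus strand) fell from 88.4 ± 5 to 15.1 ± 3.74 and ZNF501 (chr3:44729596-44737083, plus strand) from 101 ± 6.32 to 24.6 ± 1.95 (SD, n = 3), log2 fold changes of -2.50 ± 0.24 and -2.00 ± 0.19. Both share the short arm of chromosome 3 with ZNF662. When neighbours within 5 Mb were joined, a distance chosen after the values were seen, ZNF620, ZNF662, ZNF660, ZNF197 and ZNF501 formed 1 stretch (chr3:40477131-44737083) in which all 5 were lower. The 4 other listed protein-coding genes there were 2 higher and 2 lower. ZNF660 shares exons with ZNF197 and ZKSCAN7, and ZNF662 with KRBOX1, so reads in the shared parts cannot be assigned for sure. ZNF197 had 701, 687 and 669 in the sh-Control libraries and 452, 474 and 511 in the sh-METTL3 libraries (-0.52 ± 0.08 on the log2 scale). ZKSCAN7 fell by 1.59, and the part of shared reads in these values was not tested.

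ZNF770 on chromosome 15 gave 985, 934 and 1011 in the sh-Control libraries and 394, 353 and 453 in the sh-METTL3 libraries. The fall of a gene this well measured was clear in every library, at -1.29 ± 0.10 on the log2 scale (adjusted p = 4.6e-06). ZNF215 on chromosome 11, a KRAB gene of the imprinted region at the end of the short arm, fell from 74.8 ± 6.57 to 26.6 ± 0.753 (-1.45 ± 0.20, adjusted p = 0.00025). ZNF469, mutated in brittle cornea syndrome, was under the level limit for named genes and read 73.4, 69.2 and 58.9 in the sh-Control libraries and 12.1, 10.3 and 17.9 in the sh-METTL3 libraries (-2.27 ± 0.27). Chromosomes 1 and 3 were the only chromosomes with more than 2 listed ZNF genes that had all of them lower, 6 of 6 each, whereas 53.4% of the other listed protein-coding genes of each were lower. On chromosome 1 these were ZNF644, ZNF697, ZNF281, ZNF678, ZNF496 and ZNF672.

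Rises elsewhere were led by ZNF521 on chromosome 18, a cofactor of progenitor cells with 27 predicted fingers and no KRAB pattern. Its counts were 10.4, 5.76 and 4.67 in the sh-Control libraries and 104, 130.2 and 132 in the sh-METTL3 libraries. The gene was close to silent in the controls and moderately read in all sh-METTL3 libraries, a log2 fold change of 4.01 ± 0.30 (adjusted p = 4.6e-06). ZNF454 had 0 reads in each sh-Control library and 10, 9 and 6 reads in sh-METTL3. Against a floor of 3 reads per library it was at least 3.42-fold higher.

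ZNF789 on chromosome 7 rose from 126 ± 19.2 to 276 ± 15.5 (SD, n = 3) and ZNF519 on chromosome 18 from 83.9 ± 12 to 178 ± 35.1, log2 fold changes of 1.13 ± 0.14 and 1.07 ± 0.19 (adjusted p = 0.00013 and 0.0012). ZNF248 and ZNF169 followed at 0.81 ± 0.12 and 0.80 ± 0.15 (adjusted p = 0.00048 and 0.0017). ZNF396, a SCAN-domain gene with 75.8, 60.5 and 95.3 in the sh-Control libraries and 104, 133 and 158 in the sh-METTL3 libraries, was a less certain rise. Its change of 0.77 ± 0.21 (adjusted p = 0.017) lost the call when any 1 of 4 libraries was left out (sh-Control replicate 1 or 2, sh-METTL3 replicate 2 or 3), with adjusted p up to 0.085.

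The ZNF genes with the highest levels per kilobase moved little. On chromosome 19 ZNF581 stood at 707 and 612 scaled counts per kilobase in sh-Control and sh-METTL3, and ZNF146, which consists almost only of fingers, at 548 and 420.2. Elsewhere ZNF185, a LIM-domain actin-binding protein that carries the ZNF symbol without a C2H2 finger, stood at 633 and 772. ZNF217, an oncogene amplified in breast cancer, stood at 568 and 480.1. ZNF146 had 2308, 2226 and 2278 in the sh-Control libraries and 1793, 1778 and 1655 in the sh-METTL3 libraries, a fall of 0.38 on the log2 scale (adjusted p = 0.00034), and ZNF185 rose by 0.29 (adjusted p = 0.0055). ZNF581 (-0.21 ± 0.06, adjusted p = 0.024) lost its call under 7 of 13 alternatives and ZNF217 (-0.25 ± 0.08, adjusted p = 0.036) under 6, with adjusted p up to 0.60 and 0.49. Without sh-METTL3 replicate 3 the value of ZNF217 was -0.16. ZNF581 also shares exons with ZNF580 and CCDC106.

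**Figure D4:**
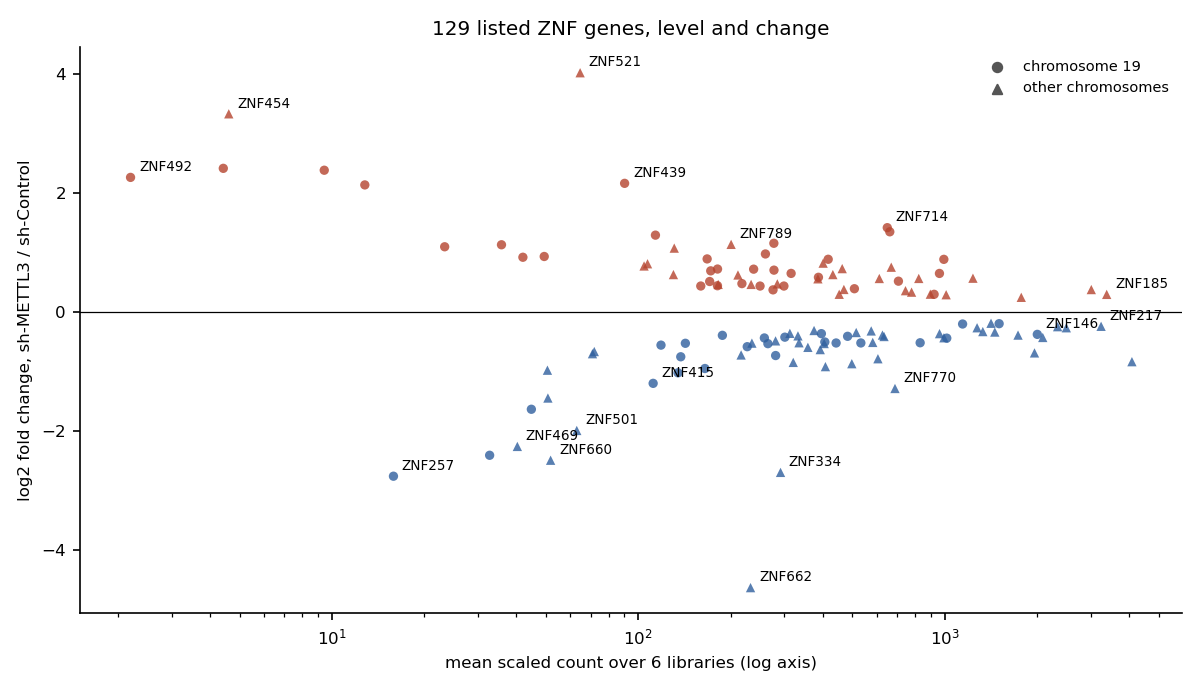
Mean scaled count over the 6 libraries (x axis, log scale) against the log2 fold change (y axis, limma estimate) of the 129 ZNF genes, circles for chromosome 19 and triangles for other chromosomes, red above and blue below 0. Large changes sit mostly at low levels, and ZNF714, ZNF431 and ZNF770 are those of the 43 most read genes (means from 514) with a change of at least a doubling or halving. ZNF492 and ZNF454 had 0 reads in the controls, so their plotted values depend on the pseudocount of 1.

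Size of change went with level. In 3 equal groups of 43 genes by mean scaled count, the median absolute log2 fold change was 0.98 in the lowest, 0.54 in the middle and 0.39 in the highest group. The counts of higher and lower genes were 25 and 18, 20 and 23, and 17 and 26. A threshold on p asks a larger change of a gene with few reads, and the part of the authors' selection in this order was not tested. Chromosome 19 ZNF genes had a median level of 40.5 scaled counts per kilobase and those elsewhere 78.2, and 11 of the 59 against 2 of the 70 had a mean scaled count under 50.

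By translation of the GENCODE 29 transcripts, the 129 proteins had a median of 10 C2H2 fingers (range 0 to 31), and 62 matched a strict KRAB pattern, 39 on chromosome 19 and 23 elsewhere. Among the 62, 37 rose and 25 fell (median 0.43 on the log2 scale). Among the 67 without the pattern, 25 rose and 41 fell, with a median of -0.33. The KRAB genes included 12 of the 14 genes of the largest run, and the 27 KRAB genes on the rest of chromosome 19 were 14 higher and 13 lower (median 0.37). The 20 chromosome 19 genes without the pattern were 9 higher and 11 lower (median -0.21). On the other chromosomes KRAB genes were 12 higher and 11 lower, and genes without the pattern 16 higher and 30 lower. Over the list 46.6% were called higher and 51.3% lower, and 42.7% and 55.2% of the other listed protein-coding genes. A difference between genes with and without the pattern was not tested. The pattern misses divergent boxes, so the second group may hold some KRAB proteins. The 3 proteins without a finger by the pattern were those of ZNF738, ZNF703 and ZNF185.

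Of 30 names written down as partners of KRAB zinc finger proteins or factors of the H3K9 methylation pathway, 14 were listed and 13 called, 3 higher and 10 lower. Over the whole list 97.9% were called, 46.6% higher and 51.3% lower, and 33.8% of annotated protein-coding genes were listed. The median of the 14 was -0.27 on the log2 scale, against -0.21 for the list. TRIM28 and SETDB1 were not among the listed genes. ATF7IP, the SETDB1 cofactor, had 2386, 2435 and 2567 in the sh-Control libraries and 1876, 1840.2 and 1705 in the sh-METTL3 libraries, a fall of 0.45 on the log2 scale (limma adjusted p = 0.00019). The H3K9 methyltransferase SUV39H2 fell by 0.62 and UHRF1, which brings DNMT1 to hemimethylated DNA, by 0.73 (adjusted p = 0.0066 and 0.0041). In both, sh-METTL3 replicate 3 was the lowest library, at 158 and 301 against group means of 198 and 409.

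HDAC1, HDAC2, MTA1, CBX3, MORC3, SMARCAD1 and TRIM33 made up the other called falls, between -0.29 and -0.20. EHMT2, the other H3K9 methyltransferase of the list that was called, rose, with 1240.4, 1342 and 1231 in the sh-Control libraries and 1889, 1818 and 1803 in the sh-METTL3 libraries (0.53 ± 0.06, adjusted p = 5.9e-05). CHD3 rose by 0.17. The HP1 gene CBX5 passed at 0.30 ± 0.10 (adjusted p = 0.043), but its groups overlapped, with 3057, 3004 and 3087 in the sh-Control libraries and 4227, 4072 and 3083 in the sh-METTL3 libraries. DNMT1 was listed and not called (-0.25 ± 0.09, adjusted p = 0.063), and leaving out 1 library gave values from -0.31 to -0.14. With RLE factors 7 of the 14 were called, 3 higher and 4 lower, and 1 was called higher without sh-Control replicate 1 or 2 or sh-METTL3 replicate 1 or 2.

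C2H2 genes with other names were higher and lower about as often as the whole list. Of 46 listed genes whose symbols begin with ZBTB, ZKSCAN, ZSCAN, ZFP, KLF or SP, 21 rose and 24 fell, or 46.7% higher among the called genes. That share was 47.6% over the list and 43.6% over the listed protein-coding genes other than the ZNF genes. The median change was -0.37 on the log2 scale, against -0.21 over the list and -0.25 over those protein-coding genes. ZFP genes were 6 higher and 2 lower and ZSCAN genes 5 and 3, while KLF genes were 3 and 6 and SP genes 0 and 4. The name rule also took in ZFP36, an RNA-binding protein, and SP100, a nuclear body protein, which are not C2H2 factors. The ubiquitous activator SP1 fell by 0.48 and SP3 by 0.40 on the log2 scale. ZKSCAN7, which lies in the chromosome 3 stretch and shares exons with ZNF660, fell by 1.59.

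The table also lists 20 non-coding genes with a ZNF-based name, antisense RNAs, divergent transcripts and pseudogenes, which the rule leaves out. Of these 18 were higher and 2, the pseudogenes ZNF702P (-2.54 ± 0.20) and ZNF826P, were lower. Of all 1018 listed genes that are not protein-coding 71.8% were called higher, so a lean upward is not particular to those with a ZNF name. ZNF436-AS1 rose by 1.57 and ZNF213-AS1 by 1.34 on the log2 scale, from 67.2 ± 13.5 to 200.4 ± 38 and 119.6 ± 9.62 to 308 ± 65.3 (SD, n = 3). Only 3 had a listed protein-coding partner, and in each pair both were higher, with ZNF528-AS1 at 1.06 and ZNF528 at 0.88, ZNF710-AS1 at 1.20 and ZNF710 at 0.55, and ZNF529-AS1 at 0.91 and ZNF529 at 0.58. Strand use in counting is not given in the sources used here, so reads of ZNF710 and ZNF529 and their overlapping antisense partners cannot be told apart. ZNF528-AS1 ends before the start of ZNF528 and shares no exon with it.

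Duplication limits how surely reads can be assigned to 1 ZNF gene. A median of 0.823% of the 50-base stretches of a ZNF gene's transcripts occurred in another gene, and 3.97% in the largest run. For 8 genes it was over 10% (ZNF492, ZNF395, ZNF512, ZNF280D, ZNF585B, ZNF581, ZNF404 and ZNF419), of which only ZNF492 lies in the run. Exons of 56 of the 129 genes overlapped those of another annotated gene, in 33 cases on the opposite strand. Besides those noted above, the 56 include the named genes ZNF431, ZNF493, ZNF146, ZNF460, ZNF536, ZNF215, ZNF770, ZNF789, ZNF519, ZNF248 and ZNF217.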

How the data were processed

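Per the labels, RNA came from LPS-stimulated ARPE-19 cells, 3 sh-METTL3 and 3 sh-Control libraries, grouped by the sample titles. The submitters' processing notes name HISAT2 2.0.5 and hg38, and the study's methods name Cufflinks with RefSeq mRNAs, whereas the table holds Ensembl identifiers and whole reads over a size factor, so how these reads were counted, strand use included, is not given in the sources used here. Rows carry coordinates and exonic lengths equal to GENCODE 29 for all 7758 genes. The 6 library columns that the authors deposited hold a signal, reads over a size factor, and 100% of values came back as whole reads (within 0.05 read). Group means and log2 fold changes that the authors deposited were not used. The raw and adjusted p-value that the authors deposited served only to count the tests (22977) and to read the list's threshold. In 13 rows a symbol turned into a date was restored from GENCODE 29.

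Scaled counts were transformed to log2(scaled count + 1) and fitted with limma 3.58.1 (R 4.3.3) with an intensity trend on all listed genes, two-sided, and p-values were adjusted by Benjamini-Hochberg over 22977 tests with a threshold of 0.05. Fold changes are on this log2 scale, which understates changes of low genes. Alternatives were edgeR 4.0.16 quasi-likelihood and DESeq2 1.42.0 tests on the recovered reads, TMM and RLE factors, a pseudocount of 0.1, a mean of at least 50, adjustment over the listed genes, a replicate block, leaving out each library and a fold limit. The limma step was tested on simulated data. Reads per library on listed genes limit the precision of low genes, and intervals on them would cover counting error only.

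The genes to be named were METTL3 and, on chromosome 19 and elsewhere, the 6 largest called rises and falls whose groups did not overlap and whose mean was 50 or more, and the 2 genes of highest level per kilobase. Other genes were named after their values were seen. The ZNF genes, the partner list and the marker lists were chosen with earlier results of these data known. Fingers and KRAB boxes were counted by pattern in translated GENCODE 29 transcripts, and promoters came from RefSeq (GRCh38.p14), the start nearest the GENCODE 29 one.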

Additional observations from a re-analysis of the deposited data

How the results depend on the processing

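No ZNF gene changed sign under any of the 14 alternatives (13 refits and the adjustment over the listed genes), and 106 to 129 of the 129 were called (113 of the 116 with a mean of at least 50). Of 406 values of the 29 named genes under these alternatives, 384 kept their side of the threshold, 22 lost the call and 0 reversed. METTL3, ZNF581, ZNF217 and ZNF396 made up those 22. With the replicate block 125 were called, 61 higher and 64 lower, and it moved no other count by over 1.5 times. After subtracting group means, libraries that share a number had correlations of 0.0036, 0.019 and -0.015, which shows no pairing by number.

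Asking also for a change of at least a doubling or halving left 27 of the ZNF genes, 15 higher and 12 lower (11.6% and 9.3%, against 12.6% and 12.7% of other listed protein-coding genes). It left 16 on chromosome 19 (11 higher, 5 lower), 11 elsewhere (4 and 7), 6 in the largest run (5 higher, or 4 with ZNF492 at its lower bound), 0 of the partner list (0 higher, 0 lower) and 7 of the other families (3 and 4). TMM and RLE factors, estimated on the listed genes, raised log2 fold changes by 0.043 and 0.12. Medians with TMM and RLE were -0.17 and -0.086 for all ZNF genes, 0.47 and 0.55 on chromosome 19, -0.29 and -0.21 elsewhere, 0.95 and 1.03 in the largest run, and -0.22 and -0.14 for the partner list. The other families had -0.25 with RLE, and the partner list then kept 7 calls, 4 of them lower. With a mean of at least 50 the medians were -0.26 for all ZNF genes, 0.37 on chromosome 19 and 0.80 in the largest run, which then had 0 lower. The run built with a gap of 0.5 Mb also had 0 lower. Leaving out 1 library gave medians of 0.81 to 0.92 in the largest run and -0.33 to -0.30 on other chromosomes, and 1 to 3 partner genes called higher.

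Only genes the authors had called are in the table, and the effect of this selection was not compared with that of depth. Scaling factors and the variance prior were estimated on selected genes, and genes with few reads, such as ZNF492, ZNF781, ZNF540 and ZNF454, have folds that depend on the pseudocount.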
